A study of Caenorhabditis elegans with 15 samples.

Results

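Animals in the sleep-like lethargus that closes the last larval stage were compared with young adults, gene by gene, on whole-genome expression arrays. The comparison uses the 5 arrays titled L4-lethargus and the 5 titled Adult, 10 of the 15 arrays of the series, and 22548 probe sets that name 17118 genes. The other 5 arrays, of L4 larvae, are not a side of the comparison. They entered the estimate of the spread, the choice of a gene's probe set, the background limit and the alternative scalings described below. Their levels are also given where they help to place a value. All pools were wild-type Caenorhabditis elegans hermaphrodites of strain N2, variety Bristol, with no mutation, transgene or drug in any group. They were raised from arrested first larvae at 20 °C on DA837, a derivative of the usual laboratory food bacterium, and picked by hand at 22.5 °C in batches of 20 animals. Lethargus animals were picked 45 to 50 h after feeding began, when pharyngeal pumping had been stopped for 30 to 40 min. The L4 pools are labelled with an age of 42 h. The Adult pools are labelled young adult, with no age in hours in the labels. The labels give RNA yields of 18.6 ± 3.5 ng for a lethargus pool and 75.3 ± 10.3 ng for an Adult pool. For an L4 pool they give 22.3 ± 7.0 ng. Every array is a whole-animal pool, so fewer cells of a type and less RNA per cell cannot be told apart.

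Each larval stage of C. elegans ends in a molt. The animal stops feeding and moving, the epidermis and the pharynx lay down a new cuticle of collagens and other matrix proteins below the old one, and proteases then free the old cuticle. The last molt gives the adult. Around it the germ line turns from making sperm to making oocytes, the intestine turns to making yolk, and the uterus prepares to hold eggs.

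The stage markers separated the arrays as follows. The yolk genes *vit-2*, *vit-5* and *vit-6* averaged 13.05 to 13.21 over the lethargus arrays and 13.47 to 13.65 over the Adult arrays (log2 intensity), against 8.80 to 9.97 in L4, so yolk transcripts were already abundant in lethargus. The adult cuticle markers (*col-19*, *rol-6* and *bli-1*) averaged 9.41 to 11.32 in lethargus, 9.12 to 9.30 in Adult and 11.04 to 11.19 in L4. *rol-6* and *bli-1* were highest in L4, at means of 13.08 and 13.10, so these values go against the name of that list. The adult-specific collagen *col-19* stood at 13.19 ± 0.25 in lethargus and 13.36 ± 0.30 in Adult, against 7.11 in L4. Of the molting markers, *dpy-7*, *noah-1*, *ptr-4*, *mlt-10* and *nas-37* averaged 6.38 to 7.66 in lethargus and 6.13 to 6.33 in Adult, both far below the 10.59 to 11.30 of L4. Oocyte markers (*oma-1*, *oma-2*, *cpg-1*, *cpg-2* and *puf-5*) averaged 10.08 to 10.82 in lethargus and 11.81 to 11.94 in Adult, without overlap. Of 21 genes first switched on in early embryos, 13 in lethargus and 11 in Adult lay below 5.56, which serves here as the limit of background. Of the single-array values of 32 probe sets for sequences of other species, taken over all 15 arrays, 95% lay below this level. The mean over the 21 embryonic genes was 5.12 to 5.36 in lethargus and 5.37 to 5.58 in Adult. The major sperm protein genes were near the top of the scale in both stages, at 12.50 to 12.69 and 12.48 to 12.67.

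Adult replicate 2 and lethargus replicate 1 stood apart from the others of their stage. The first principal component of the 10 arrays held 84.8% of the variance and separated the stages. The second held 5.20% and separated Adult replicate 2, at -50.4, from the other 9 arrays. Adult replicate 2 was more than 1 log2 unit below the mean of the other 4 Adult arrays in 392 genes and as far above it in 36. Lethargus replicate 1 was as far above the other 4 of its stage in 274 genes and below in 189. The 3′ minus 5′ difference in signal for control transcripts, which reflects how intact the RNA was, came to 4.38 ± 0.12 in lethargus and 4.28 ± 0.19 in Adult for ubiquitin, and 3.05 ± 0.17 and 2.67 ± 0.26 for catalase. It was smaller in lethargus for Gapdh, at 0.065 ± 0.070 against 0.285 ± 0.121 with no overlap, and for actin, at 0.040 ± 0.037 against 0.123 ± 0.092. The part of RNA quality in the differences was not tested. Some list counts and medians are also given without either or both of these arrays. Differences of single genes use all arrays unless stated, and named genes in which an array stood out are listed in a later section.

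Lethargus and Adult differed at 57.3% of the genes measured, and the large differences were mostly towards lethargus. Of 17118 genes, 4492 (26.2%) were higher in lethargus and 5314 (31.0%) were lower, at an adjusted p of 0.05 or less and with no fold minimum. Counted over the 22548 probe sets, 5715 (25.3%) were higher and 7147 (31.7%) lower. The median difference was 0.91 among the genes called higher and -0.70 among those called lower (log2, lethargus minus Adult throughout). At a difference of at least 1, which is 2-fold, 2014 genes were higher and 1383 lower. At a difference of at least 3, which is 8-fold, 272 were higher and 65 lower, and at a difference of at least 5 the counts were 56 and 2. In 3879 genes (22.7%) all 5 lethargus arrays lay above all 5 Adult arrays, and in 4539 (26.5%) all lay below. Low signal limits part of this. In 371 of the genes called higher and 779 of those called lower both stages were below the background limit, and such genes are given by their means, without a fold. Where 1 stage was below the limit, the log2 difference is the measured one, and the fold is a bound, written as "at least" or "or more".

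**Figure D1:**
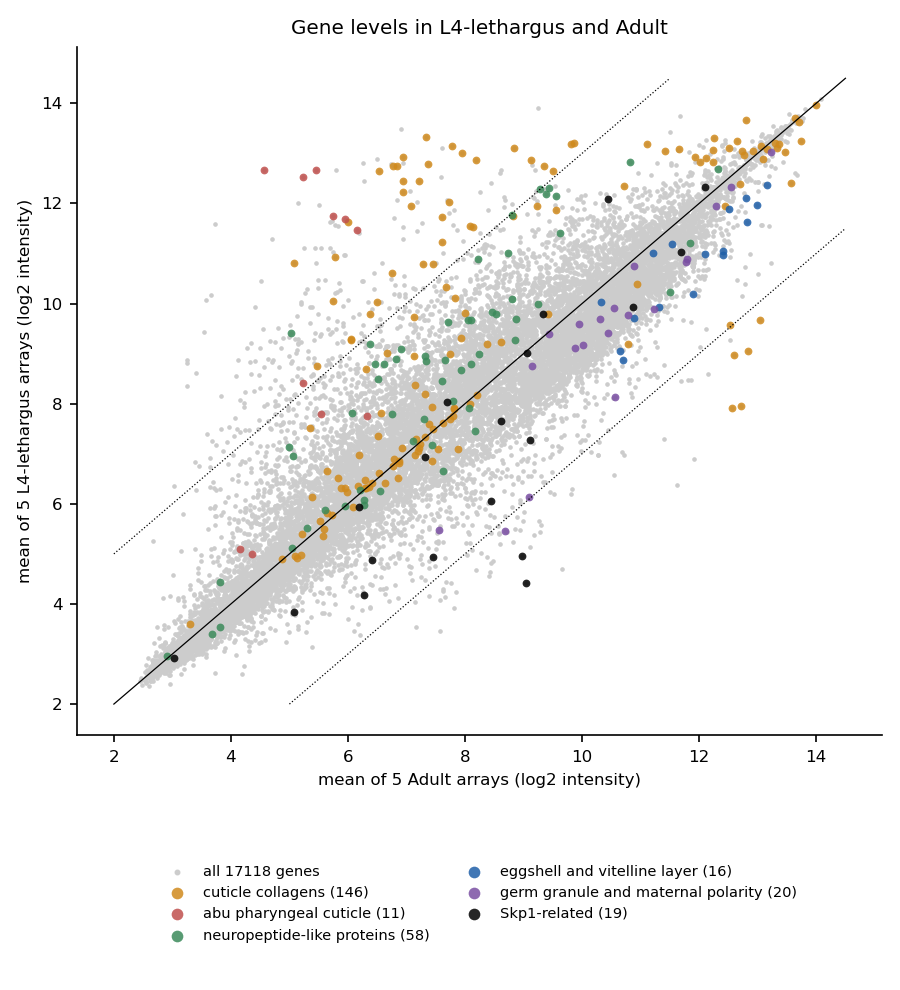
Each point is 1 of 17118 genes, with the mean of the 5 Adult arrays on the x axis and the mean of the 5 L4-lethargus arrays on the y axis (both log2 intensity), 6 gene lists in colour, a solid line at equal levels and dotted lines at a difference of 3 in either direction. The abu and collagen points beyond the upper dotted line are among the 272 genes called higher by at least 3, and 65 genes were called lower by as much.

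The Adult arrays had lower medians, and the counts of calls depend on how that is treated. The median of an array over the non-control probe sets was 7.51 ± 0.02 in lethargus and 7.26 ± 0.04 in Adult, a difference of 0.25, and every lethargus array lay above every Adult array (exact two-sided permutation test, p = 0.0079, the smallest that 5 against 5 can give). The lower Adult medians were known from these same arrays before this test, so its p-value only describes the separation. The offset of the medians was not shared by the rest of the distribution. The lower quartile differed by 0.02 (exact permutation p = 0.44), the mean by 0.03 (exact permutation p = 0.056), and the upper quartile was lower in lethargus by 0.10 with no overlap (-0.10, exact permutation p = 0.0079). The spiked hybridisation controls, added in equal amounts to all arrays, averaged 11.63 ± 0.05 in lethargus and 11.35 ± 0.08 in Adult, a difference of 0.28 (exact permutation p = 0.0079). The median of the cytosolic ribosomal protein genes differed by 0.01 (exact permutation p = 0.62).

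A lower Adult median did not mean that most genes were lower in Adult. The median of the differences over genes was -0.08, that is, slightly higher in Adult. By deciles of mean level, the median difference was -0.14 in the second decile, 0.25 in the fifth and 0.24 in the sixth, and -0.32 in the eighth and -0.33 in the ninth. In the brightest decile it was -0.09, near that of all genes. Genes of the fifth and sixth deciles, where the array median lies, thus sat higher in lethargus, but their medians became -0.0067 and -0.010 with median-centring and 0.017 and 0.032 with quantile normalization. When each array was centred on its median, the median difference of all genes moved to -0.34, and the calls to 3250 higher and 9184 lower, so that 26.1% of called genes were higher instead of 45.8%. Centring on the spiked controls gave 3026 higher and 9191 lower (24.8% higher, median -0.36). All 5314 genes called lower kept that call under both, and 3250 and 3026 of the 4492 called higher kept theirs. Quantile normalization repeated over the deposited values gave 4200 higher and 5465 lower (43.5% higher), cyclic loess 4937 and 4630 (51.6%), and equal ribosomal medians 4414 and 5410 (44.9%). No gene called in one direction was called in the other under any of these 5 scalings. The median of all genes ranged from -0.36 to 0.01 over these scalings, so a difference smaller than that range can change its sign with the scaling.

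**Figure D2:**
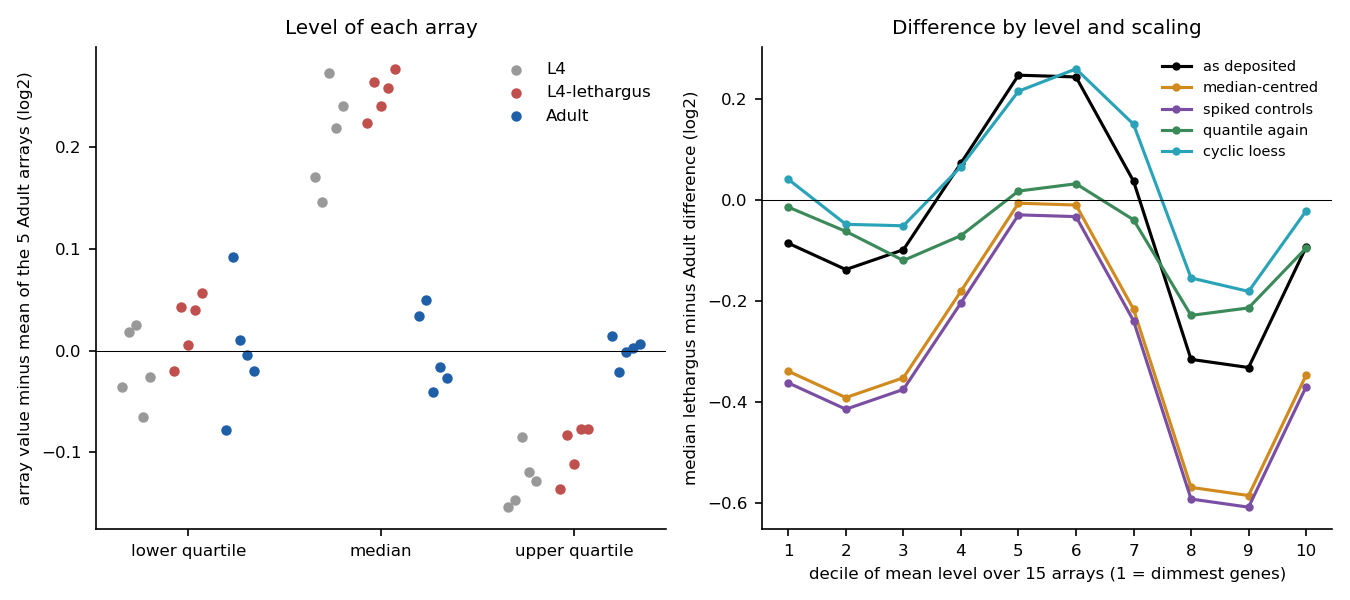
Left, the lower quartile, median and upper quartile of each of 15 arrays, as the log2 value minus the mean of the 5 Adult arrays; right, the median lethargus minus Adult difference (log2) of the genes in each decile of mean level, under 5 scalings. The 5 lethargus medians lie above the 5 Adult medians and their upper quartiles lie below, and the deposited values run from 0.25 in the fifth decile to -0.33 in the ninth.

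Genes of the pharyngeal cuticle were higher in lethargus, several of them by large amounts. The *abu* genes encode glutamine- and asparagine-rich secreted proteins, first described in the response to protein stress in the endoplasmic reticulum, that form part of the cuticle lining the pharynx. Of this list, 11 of 11 measured members were higher in lethargus, 0 lower and 0 not called, with a median of 5.32 against -0.08 over all genes. Over all genes 26.2% were called higher and 31.0% lower, and the counts of every list that follows stand beside these shares. List counts with median-centring stand instead beside 3250 higher and 9184 lower of all 17118 genes. Leaving out lethargus replicate 1 or Adult replicate 2, or quantile normalization, left 10 of the 11 called, and centring on the median or on the spiked controls left 9. The members *abu-2* and *abu-3* were below background in both stages, and the measured differences of the others ran from 1.43 for *abu-12* to 8.11 for *abu-15*. The arrays of *abu-12* overlapped between the stages (adjusted p = 0.0315). Both *abu-12* and *abu-13* were uneven among lethargus pools, with SDs of 1.12 and 1.53. For *abu-15* the lethargus arrays read 12.26, 12.44, 12.98, 13.14 and 12.54 and the Adult arrays 4.60, 4.58, 4.67, 4.38 and 4.57. The groups are separated by more than 7 log2 units, a difference of 8.11 ± 0.16 (SE; at least 138-fold higher, adjusted p = 6.2e-15). *abu-6* and *abu-8* differed by 7.29 ± 0.16 (124-fold or more) and 7.21 ± 0.16 (137-fold or more). These 3 and 4 further members were read from probe sets that share probes with relatives, so the members cannot be fully told apart, but *abu-10*, read from a probe set of its own, was at 11.75 ± 0.51 in lethargus and 5.74 ± 0.12 in Adult (64.7-fold, adjusted p = 1.8e-12). The other, dimmer probe set of *abu-10* was called higher too, with a smaller difference of 2.53. Some members were as low in L4 as in Adult, with an L4 mean of 4.15 for *abu-15* and 5.60 for *abu-10*, but *abu-12* and *abu-13* were highest in L4, at 9.53 and 11.73.

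Several other genes were high in lethargus and near background in Adult. *dct-5* read 11.60, 11.59, 11.72, 11.63 and 11.42 in lethargus and 3.79, 3.78, 3.65, 3.42 and 4.04 in Adult, where it was not above background. The difference was 7.86 ± 0.10 (at least 65.3-fold, adjusted p = 4.6e-17), and its L4 mean was 3.51. *dbd-20* read 12.60, 12.74, 12.67, 12.67 and 12.70 in lethargus and 5.65, 5.65, 5.67, 5.68 and 6.34 in Adult, a difference of 6.88 ± 0.23, and *dbd-13* differed by 6.16 ± 0.31. *lgc-21*, which belongs to the ligand-gated ion channel family, differed by 6.51 ± 0.27 (at least 24.4-fold), and *idpc-2* by 6.50 ± 0.38 (at least 22.8-fold). *tag-297* differed by 6.86 ± 0.20 (at least 87.1-fold) but was already high in L4, at 11.03. Genes known only by a sequence name were among the largest too: *K01D12.9*, *Y47D7A.13*, *R12E2.7*, *ZK662.2* and *H10E21.4* were higher in lethargus, at 6.38 to 6.59 (53.2-fold or more). The lethargus arrays of *Y47D7A.13* were at 13.41, 13.42, 13.52, 13.53 and 13.52.

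**Figure D3:**
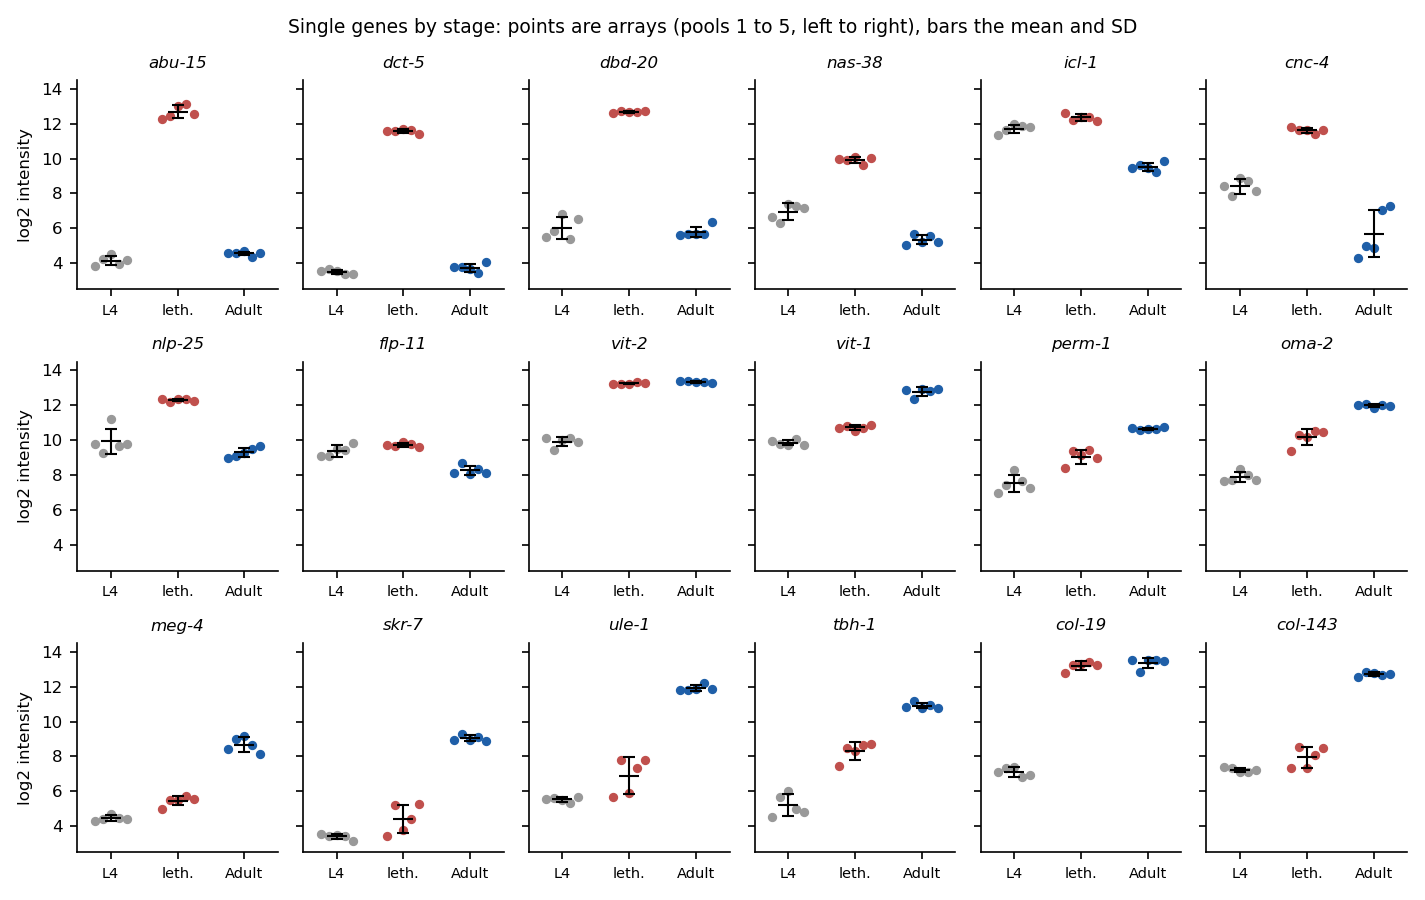
Level of 18 genes (log2 intensity, y axis) in L4, L4-lethargus and Adult; points are single arrays, and the bar and whiskers are the mean and SD of 5 arrays. abu-15, dct-5, dbd-20 and nas-38 are highest in lethargus of the 3 stages, whereas vit-2 and col-19 overlap between lethargus and Adult.

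Other pharyngeal genes were called at shares near those of all genes, or in no settled direction. Among the prion-like *pqn* genes, a class defined by glutamine- and asparagine-rich stretches that overlaps the *abu* genes in sequence, 15 of 47 measured members were higher in lethargus, 14 lower and 18 not called, with a median of -0.01, close to the 26.2% and 31.0% of all genes. *pqn-74*, *pqn-54* and *pqn-63* were higher by 5.24, 5.23 and 4.99 (30.0-fold or more), and *pqn-31*, *pqn-82* and *pqn-88* lower, at -1.95, -1.10 and -1.06. The *phat* genes encode mucins of the pharyngeal glands: *phat-2*, *phat-4* and *phat-1* were higher, by 1.94, 1.77 and 1.32 (2.28-fold or more), *phat-8* and *phat-3* were lower, at -1.12 and -0.72, and *phat-5*, *phat-6* and *phat-7* were not called, with *phat-6* at a mean of 7.14 in both stages. For pharyngeal muscle, 6 of 16 measured members were higher in lethargus, 0 lower and 10 not called, led by the transcription factor *pha-4* (2.12 ± 0.16), the troponin T gene *tnt-4* (1.67 ± 0.31) and the innexin *inx-20*, which was below background in both stages (4.58 ± 0.21 in lethargus and 3.01 ± 0.20 in Adult). The medians of the *phat* and pharyngeal muscle lists, 0.23 and 0.25, moved to -0.02 and -0.01 with median-centring, so neither list has a settled direction.

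Cuticle collagens differed in both directions and included some of the largest differences either way. These short collagens are secreted by the epidermis and build the layers of the body cuticle, and each molt uses its own set. Of the whole family, 72 of 146 measured members were higher in lethargus, 13 lower and 61 not called, with a median of 0.47. Median-centring gave 67 higher and 28 lower, with a median of 0.21. *col-91* read 12.51, 12.68, 12.76, 12.64 and 12.70 in lethargus and 6.53, 6.68, 6.03, 6.47 and 6.97 in Adult, a difference of 6.12 ± 0.28 (69.7-fold, adjusted p = 5e-11). *col-120* and *col-60* differed by 5.99 ± 0.61 and 5.98 ± 0.66. The 5 lethargus arrays of *col-60* lay within 13.26 to 13.37, and its L4 mean was 9.64. In the other direction, *col-143* read 7.35, 8.53, 7.32, 8.11 and 8.49 in lethargus and 12.58, 12.84, 12.75, 12.64 and 12.73 in Adult (-4.75 ± 0.20, 26.9-fold lower in lethargus, adjusted p = 2.5e-11). *col-101* and *col-98* were lower too, at -4.65 and -3.78. The adult collagen *col-19* did not pass the test (-0.17 ± 0.16, adjusted p = 0.75).

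Collagens named for their mutant body shapes, or found in the struts of the adult cuticle, were mostly higher in lethargus. Of this list, 8 of 13 measured members were higher in lethargus, 1 lower and 4 not called, with a median of 1.63. *dpy-5* read 12.52, 12.06, 12.03, 11.15 and 11.98 in lethargus and 6.86, 7.07, 7.21, 7.09 and 7.20 in Adult (4.86 ± 0.17, 29.1-fold), against an L4 mean of 12.70. *sqt-1* and *rol-6* differed by 3.53 ± 0.54 and 2.66 ± 0.38, with lethargus SDs of 1.66 and 1.18 and L4 means of 13.36 and 13.08. *dpy-17* was the member called lower, at -0.58. The collagens of the annular furrows were low in both stages: *dpy-2*, *dpy-3*, *dpy-7*, *dpy-8* and *dpy-9* had L4 means of 11.34 to 12.24 and stood at 6.13 to 8.18 in lethargus and 5.39 to 8.20 in Adult, and none passed the test (differences of -0.43 to 0.75, with *dpy-8* at adjusted p = 0.063). Without lethargus replicate 1, or with the replicate numbers as a block in the fit, 1 of the 5 was called higher.

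Enzymes that process the cuticle were mostly higher in lethargus. Of the genes for collagen processing and cross-linking, 11 of 17 measured members were higher in lethargus, 1 lower and 5 not called. *mlt-7*, a haem peroxidase that cross-links cuticle proteins, was at 11.11 ± 0.39 in lethargus and 8.34 ± 0.07 in Adult (2.77 ± 0.22), the astacin *nas-7* differed by 2.98 ± 0.41, and *bli-5*, a Kunitz-domain protease inhibitor, by 2.30 ± 0.18. The prolyl hydroxylase gene *phy-3* was the member called lower (-0.43). The astacins are secreted metalloproteases, some of which free the old cuticle. Of the astacin list, 21 of 36 measured members were higher in lethargus, 6 lower and 9 not called, with a median of 0.61. Median-centring gave 18 higher and 10 lower of the astacins (median 0.36) and 9 higher and 3 lower of the processing genes. *nas-38*, which is known to influence the length of lethargus, read 9.99, 9.89, 10.10, 9.62 and 10.01 in lethargus and 5.07, 5.65, 5.24, 5.58 and 5.24 in Adult, a difference of 4.57 ± 0.19 (at least 20.5-fold, adjusted p = 1.7e-11). *nas-36*, which is needed to shed the old cuticle, differed by 4.19 ± 0.18 (at least 13.2-fold), and *nas-27* by 3.71 ± 0.20. *nas-37*, which also acts in shedding, went the other way, at 7.31 ± 0.08 in lethargus and 8.04 ± 0.11 in Adult (-0.73 ± 0.11, adjusted p = 6e-05). *nas-20*, *nas-11* and *nas-9* were also lower, at -1.49, -1.05 and -1.02.

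The secreted hedgehog-related proteins and the patched-related membrane proteins, both large families in nematodes and both needed in molting, were called higher in lethargus more often than lower. Of the hedgehog-related list, 28 of 54 measured members were higher in lethargus, 4 lower and 22 not called. *grl-16*, *grl-21* and *grl-27* differed by 5.85 ± 0.40, 5.73 ± 0.54 and 4.93 ± 0.19. Of these, *grl-21* was uneven among Adult pools, at 5.33, 5.04, 5.47, 5.18 and 8.10. *grd-10* and *grd-3* were lower in lethargus, at -3.55 and -3.27, and both varied among lethargus pools (SDs of 1.42 and 1.35), while *grl-3* was below background in both stages (4.79 ± 0.12 in lethargus and 5.40 ± 0.20 in Adult). Median-centring gave 23 higher and 16 lower. Of the patched-related list, 15 of 28 measured members were higher in lethargus, 2 lower and 11 not called. *ptr-3* was at 7.72 ± 0.20 in lethargus and 4.07 ± 0.20 in Adult (3.64 ± 0.13, at least 4.44-fold) and *ptr-1* differed by 3.30 ± 0.27 (7.64-fold or more), while *ptc-1*, a germ-line gene, was lower, at -0.32, and *ptr-2* was at 10.93 ± 0.02 in lethargus and 11.93 ± 0.12 in Adult. Median-centring gave 14 higher and 6 lower of this list.

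Regulators of molting were split. Of this list, 9 of 29 measured members were higher in lethargus, 3 lower and 17 not called, with a median of 0.27. That median fell to 0.17 without lethargus replicate 1 or without Adult replicate 2, to 0.11 without both and to 0.02 with median-centring, which gave 8 higher and 7 lower. *mlt-11*, which encodes a protein with protease inhibitor domains, was at 7.49 ± 0.90 in lethargus and 4.10 ± 0.25 in Adult against 11.62 in L4 (3.39 ± 0.32, at least 3.81-fold), and *mlt-8* differed by 3.00 ± 0.25. Of 3 further probe sets of *mlt-11*, 1 was called, with differences from -0.12 to 2.87. *acn-1*, related to angiotensin-converting enzyme, differed by 1.92 ± 0.20. *lin-42*, the homolog of the clock gene period, read 9.39, 8.93, 9.10, 8.66 and 8.75 in lethargus and 7.51, 7.73, 7.62, 7.56 and 7.71 in Adult (1.34 ± 0.12, adjusted p = 1.3e-07), though its other, dimmer probe set did not pass the test (-0.15). The nuclear receptor gene *nhr-23*, a driver of the molting cycle, was lower in lethargus, at 7.96 ± 0.18 in lethargus and 8.81 ± 0.26 in Adult (-0.85 ± 0.14), and *dab-1* and *mlt-4* were at -0.51 and -0.51. Of the precuticle genes, which encode lipocalins and other proteins of the transient matrix below the old cuticle, 6 of 15 measured members were higher in lethargus, 2 lower and 7 not called, with *lpr-7* at 3.16 (8.0-fold or more), *dex-1* at 1.66, *egg-6* at -1.18 and *let-653* at -1.16. Of the cuticlins, ZP-domain and related insoluble cuticle proteins, 17 of 34 measured members were higher in lethargus, 2 lower and 15 not called, led by *cut-2* (4.28 ± 0.23), *cutl-15* (3.10 ± 0.27) and *cut-4* (3.02 ± 0.24), and *cut-1* was lower (-0.42). Both stages lay below background in 17 of the 34 cuticlins, among them *cutl-2* (4.68 ± 0.15 in lethargus and 5.48 ± 0.15 in Adult), and median-centring gave 13 higher and 9 lower.

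**Figure D4:**
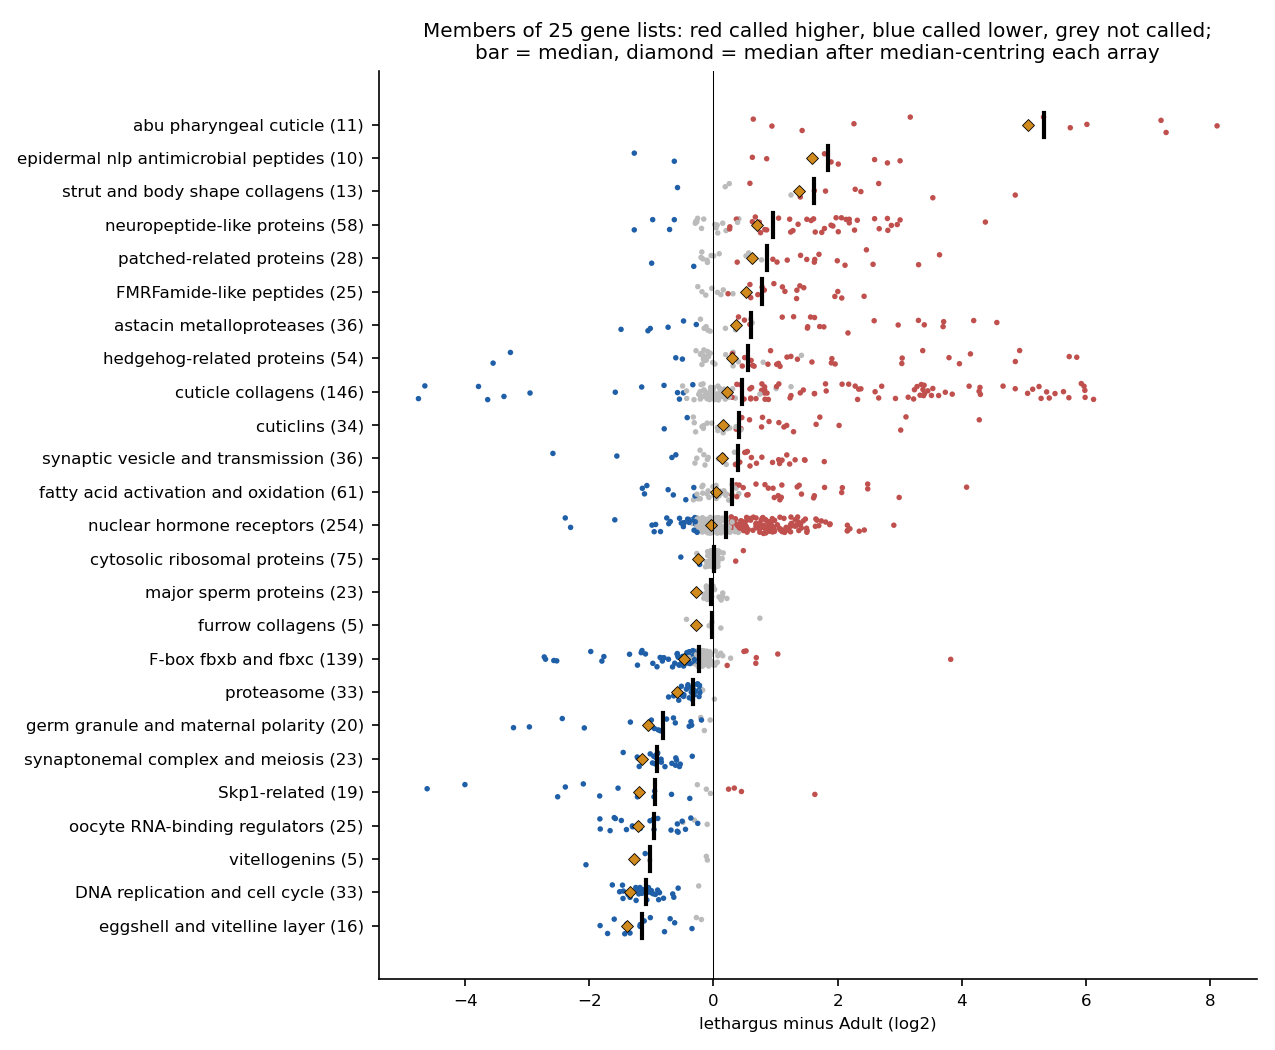
Lethargus minus Adult difference (log2, x axis) of every measured member of 25 gene lists (rows, number of members in brackets); red points were called higher in lethargus, blue lower and grey not called, the bar is the list's median and the diamond the median after each array was centred on its own median. The abu list has its median at 5.32 and the eggshell list at -1.15, and the medians of ribosomal and sperm protein lists, 0.01 and -0.03, turn negative or more negative with centring.

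Most antimicrobial peptide genes of the epidermis were higher in lethargus. Among the *nlp-24* to *nlp-34* group, secreted peptides induced by wounding and fungal infection, 8 of 10 measured members were higher in lethargus, 2 lower and 0 not called, with a median of 1.84. *nlp-25* read 12.37, 12.20, 12.32, 12.33 and 12.25 in lethargus and 8.96, 9.11, 9.25, 9.46 and 9.65 in Adult (3.01 ± 0.26, 8.04-fold, adjusted p = 8.1e-08). The neighbours *nlp-31* and *nlp-30* differed by 2.80 ± 0.18 and 2.60 ± 0.13, on shared probes. *nlp-26* and *nlp-27* were lower, at -1.28 and -0.63. Of the related caenacins, *cnc-4*, *cnc-2*, *cnc-7* and *cnc-8* were higher and *cnc-1*, *cnc-3*, *cnc-5* and *cnc-6* were not called. Without lethargus replicate 1, or with median-centring, 1 of the 8 caenacins was called lower. *cnc-3* read 9.68 in lethargus replicate 1 and 6.10 to 7.83 in the other lethargus arrays. *cnc-4* read 11.81, 11.64, 11.63, 11.41 and 11.64 in lethargus and 4.31, 4.99, 4.87, 7.02 and 7.30 in Adult (5.93 ± 0.46, 60.9-fold). All lethargus arrays were high, and Adult pools fell into 3 low and 2 intermediate values. *cnc-2* differed by 3.47 ± 0.31, *cnc-7* by 2.85 ± 0.41 and *cnc-8* by 0.95 ± 0.16.

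Neuropeptide genes were called higher in lethargus more often than the 26.2% of all genes. Of the FMRFamide-like peptide genes, 17 of 25 measured members were higher in lethargus, 0 lower and 8 not called, with a median of 0.78. *flp-7*, *flp-15* and *flp-4* differed by 2.43 ± 0.10, 2.07 ± 0.10 and 2.00 ± 0.14. Of the other neuropeptide-like genes, 39 of 58 measured members were higher in lethargus, 4 lower and 15 not called, with a median of 0.95, and 10 of these belong to the epidermal group above. *nlp-67* read 9.32, 9.60, 9.51, 9.27 and 9.33 in lethargus and 5.06, 4.69, 5.13, 5.00 and 5.26 in Adult (4.38 ± 0.12, at least 14.4-fold, adjusted p = 2.5e-13), and *nlp-20* differed by 2.96 ± 0.13. *nlp-5* and *nlp-47* were lower, at -0.98 and -0.71. Median-centring left 12 *flp* genes and 36 *nlp* genes called higher.

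Genes with a known role in promoting sleep were mixed. Of this list, 11 of 26 measured members were higher in lethargus, 3 lower and 12 not called, with a median of 0.10, which turned to -0.15 with median-centring and was 0.16 without lethargus replicate 1. *flp-11*, a peptide of the sleep-inducing neuron RIS, read 9.69, 9.68, 9.90, 9.75 and 9.61 in lethargus and 8.12, 8.71, 8.07, 8.34 and 8.11 in Adult (1.46 ± 0.15, 2.74-fold, adjusted p = 7e-07). Its L4 mean was 9.38. *nlp-8* differed by 1.23 ± 0.15. *flp-13*, a peptide of the sleep neuron ALA, did not pass the test (6.52 ± 0.20 in lethargus and 6.46 ± 0.23 in Adult, 0.06 ± 0.15, adjusted p = 1). *nlp-22*, a peptide of the RIA neurons with a sleep role, was at 5.51 ± 0.12 in lethargus and 5.31 ± 0.30 in Adult (adjusted p = 0.36), below background in both stages, as was *aptf-1*, the transcription factor that RIS needs (3.81 ± 0.06 in lethargus and 4.05 ± 0.18 in Adult, adjusted p = 0.066). *lin-3*, the EGF gene that acts through ALA and also in the vulva, was lower in lethargus (-1.44 ± 0.23), with Adult arrays at 9.28, 7.93, 9.09, 9.35 and 9.28. The Notch receptor gene *glp-1*, abundant in the germ line, was lower, at -1.06, and its ligand gene *lag-2* was below background in both stages (4.27 ± 0.29 in lethargus and 4.81 ± 0.14 in Adult). Among genes with a role in arousal, 15 of 20 measured members were higher in lethargus, 1 lower and 4 not called, with a median of 0.56. With median-centring 11 of these were higher and 2 lower (median 0.31), and with the spiked controls 9 and 3 (median 0.28). The protein kinase A gene *kin-1*, the dopamine receptor gene *dop-1* and the peptide gene *flp-2* differed by 1.10 ± 0.10, 1.16 ± 0.19 and 1.34 ± 0.13. *unc-31*, which encodes a factor for dense-core vesicle release, was below background in both stages (4.61 ± 0.07 in lethargus and 5.28 ± 0.14 in Adult).

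Of the genes for synaptic vesicles and transmitters, 19 of 36 measured members were higher in lethargus, 4 lower and 13 not called. The dense-core vesicle gene *ida-1*, the SNAP-25 gene *ric-4* and the synaptotagmin gene *snt-1* differed by 1.79 ± 0.11, 1.48 ± 0.10 and 1.47 ± 0.23. The enzymes that make tyramine and octopamine, which are found in a few neurons and also in cells of the gonad sheath, were lower in lethargus. *tbh-1*, the last step to octopamine, read 7.47, 8.51, 8.30, 8.65 and 8.71 in lethargus and 10.83, 11.15, 10.80, 10.97 and 10.80 in Adult (-2.59 ± 0.27, 6-fold lower, adjusted p = 7.6e-07), and *tdc-1*, the first step, differed by -1.56 ± 0.16. Median-centring gave 16 higher and 11 lower of the synaptic list and 16 higher and 26 lower of the neuropeptide receptors. Of the neuropeptide receptor genes, 29 of 83 measured members were higher in lethargus, 11 lower and 43 not called, and 46 of the 83 were below background in both stages. *npr-40* was at 8.74 ± 0.30 in lethargus and 4.56 ± 0.11 in Adult (4.18 ± 0.12, at least 9.05-fold), with *npr-41* at 2.36 (2.22-fold or more), *nmur-3* at 1.14 (1.49-fold or more), *dmsr-4* at -1.12, *dmsr-3* at -0.70 (1.31-fold or more) and *dmsr-2* at -0.67. Of the insulin-like peptide genes, 4 of 24 measured members were higher in lethargus, 6 lower and 14 not called, with *ins-18* at 2.59 ± 0.13, *ins-37* at 0.98, *ins-17* at 0.97, *ins-34* at -2.13 ± 0.13, *ins-23* at -1.41 and *ins-6* at -0.58. With the lethargus and Adult arrays alone in the fit, 9 insulin-like genes were lower, 4 without Adult replicate 2, and 13 with median-centring.

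Muscle and metabolic genes were called higher more often than lower in the deposited scaling, and the balance narrowed or turned under median-centring. Of the body wall muscle list, 12 of 30 measured members were higher in lethargus, 0 lower and 18 not called, with a median of 0.31. The troponin I gene *tni-1* differed by 0.86 ± 0.07, the integrin gene *pat-2* by 0.84 ± 0.17 and the ryanodine receptor gene *unc-68* by 0.73 ± 0.13. Median-centring gave 6 higher and 7 lower, so the direction of the list depends on the scaling, and the median was 0.19 without both arrays that stand apart. Of the genes for fatty acid activation and oxidation, 28 of 61 measured members were higher in lethargus, 8 lower and 25 not called, against 23 higher and 18 lower with median-centring, where the median moved from 0.30 to 0.04. *cpt-4*, a carnitine palmitoyltransferase, was at 9.22 ± 0.52 in lethargus and 5.14 ± 0.48 in Adult (4.08 ± 0.24, at least 12.6-fold), the acyl-CoA dehydrogenase *acdh-6* differed by 2.99 ± 0.47 (7.76-fold or more) and the enoyl-CoA hydratase *ech-1.1* by 2.49 ± 0.13. *acs-1*, *acs-19* and *cpt-6* were lower, at -1.15, -1.11 and -1.07. *icl-1*, which carries both enzymes of the glyoxylate cycle, read 12.62, 12.24, 12.35, 12.40 and 12.15 in lethargus and 9.47, 9.64, 9.44, 9.23 and 9.87 in Adult (2.82 ± 0.13, 7.08-fold, adjusted p = 8.5e-11), from a list of which 4 of 12 measured members were higher in lethargus, 1 lower and 7 not called, with a median of -0.04 and 2 higher and 6 lower with median-centring. The trehalose synthesis genes *tps-1* and *tps-2* were at 0.65 and 0.44, and the glycogen synthase gene *gsy-1* was at -0.59.

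Fat-handling genes were mixed. Of the lipases, 10 of 25 measured members were higher in lethargus, 6 lower and 9 not called. *lips-7* was at 9.94 ± 0.79 in lethargus and 4.42 ± 0.31 in Adult (5.52 ± 0.37, at least 20.8-fold), while *atgl-1*, the fat-droplet triglyceride lipase, was lower, at -0.88. *lips-10* and *lips-17* were higher (2.80 and 2.61) and *lips-12* and *lips-16* lower, at -1.36 (2.33-fold or more) and -1.20. Of the desaturases and elongases, 5 of 15 measured members were higher in lethargus, 2 lower and 8 not called, with the stearoyl-CoA desaturase *fat-7* at 1.01 ± 0.17, the elongases *elo-7* and *elo-4* at 1.55 ± 0.23 and 1.03, *elo-2* at -0.25 and the delta-6 desaturase *fat-3* at -0.70 ± 0.15. Median-centring gave 9 higher and 10 lower of the lipases and 3 higher and 5 lower of the desaturases and elongases.

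Genes of the intestine and of defence were mixed as well, and their counts moved with the scaling. The counts of all 17118 genes moved too, to 3250 higher and 9184 lower with median-centring. Median-centring gave 33 higher and 124 lower of the C-type lectins, 12 higher and 9 lower of the lysozymes and saposins, 10 higher and 14 lower of the proteases, 25 higher and 25 lower of the cytochrome P450 genes and 36 higher and 38 lower of the transferases, against the counts of the deposited scaling below. Of the C-type lectins, 42 of 220 measured members were higher in lethargus, 37 lower and 141 not called, and 122 of the 220 were below background in both stages. *clec-230* was higher by 4.62 ± 0.45 (18.3-fold or more), *clec-174* by 4.05 ± 0.29 and *clec-258* by 3.03 (4.29-fold or more). *clec-223* and *clec-97* were lower, at -3.85 (7.19-fold or more) and -3.46 (10.3-fold or more), and *clec-222* was at 6.26, 6.70, 6.04, 6.86 and 7.05 in lethargus and 10.30, 10.83, 10.66, 10.67 and 10.31 in Adult (-3.97 ± 0.17, 15.7-fold lower). Of the lysozyme and saposin genes, 14 of 34 measured members were higher in lethargus, 4 lower and 16 not called, led by *spp-31* (3.61 ± 0.16) and *lys-3* (3.20 ± 0.39), *spp-13* at 2.41 (3.39-fold or more), and with *spp-23*, *spp-18* and *spp-8* lower (-1.56 ± 0.11, -0.84 and -0.79). Of the protease genes, 17 of 38 measured members were higher in lethargus, 6 lower and 15 not called, with the aspartyl protease *asp-8* at 1.97 ± 0.18, *asp-14* at 1.78 and *try-9* at 1.77, and the serine protease *try-1* at -2.22 ± 0.21, *try-14* at -1.27 and *cpr-8* at -1.21. Of the cytochrome P450 genes, 33 of 73 measured members were higher in lethargus, 11 lower and 29 not called, with *cyp-37B1* at 4.26 ± 0.26 (11.8-fold or more), *cyp-32B1* at 2.95, *cyp-35A3* at 2.65 (4.62-fold or more), *cyp-29A3* at -1.79 ± 0.23, *cyp-13B2* at -1.77 (1.39-fold or more) and *cyp-14A1* at -1.45 (2.62-fold or more). Of the glutathione and glucuronosyl transferases, 46 of 104 measured members were higher in lethargus, 25 lower and 33 not called, with *gst-29* at 3.07 ± 0.10, *ugt-6* at 2.97, *ugt-33* at 2.93 (4.66-fold or more), *ugt-63* at -2.75 ± 0.51, *gst-2* at -2.02 (2.0-fold or more) and *ugt-9* at -2.01 (2.92-fold or more).

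Secreted transthyretin-like proteins and chitinases were mixed too. Of the transthyretin-like genes, 16 of 40 measured members were higher in lethargus, 7 lower and 17 not called, with *ttr-44* at 2.75 ± 0.11, *ttr-37* at 2.31, *ttr-10* at 2.02, *ttr-50* at -2.77 ± 0.19, *ttr-21* at -1.69 and *ttr-22* at -1.57. Of the chitinase genes, 3 of 31 measured members were higher in lethargus, 5 lower and 23 not called, with *cht-4* at 4.04 ± 0.18, *cht-6* at 1.95, *chil-23* at 1.93 (2.72-fold or more), *cht-3* at -2.63 ± 0.31, *chil-8* at -1.45 (2.06-fold or more) and *cht-1* at -1.36. Median-centring gave 11 higher and 13 lower of the first list and 3 higher and 19 lower of the second.

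Stress genes gave modest differences. Of the small heat shock protein genes, 7 of 12 measured members were higher in lethargus, 3 lower and 2 not called. *hsp-16.2* was at 8.56 ± 0.45 in lethargus and 6.94 ± 0.66 in Adult, far below its L4 mean of 12.12 (1.62 ± 0.29), and *hsp-17* differed by 1.20 ± 0.13. *hsp-16.41* was higher, at 0.87 (1.42-fold or more), and *hsp-43* was lower, at -1.09. *hsp-12.6* (3.42 ± 0.24 in lethargus and 4.54 ± 0.15 in Adult) and *hsp-16.21* (3.57 ± 0.20 in lethargus and 4.03 ± 0.20 in Adult) were called lower with both stages below background. Of the chaperones and sensors of the endoplasmic reticulum, 10 of 21 measured members were higher in lethargus, 3 lower and 8 not called, with the BiP gene *hsp-3* at 0.90 ± 0.08, *dnj-7* at 1.03 ± 0.09, *ckb-2* at 0.82, *cdc-48.1* at -0.37, *sel-11* at -0.29 and the sensor *ire-1* at -0.36 ± 0.08. Of the other heat shock genes, 1 of 13 measured members were higher in lethargus, 3 lower and 9 not called, with *hsp-75* at -0.50, *hsb-1* at -0.31 and the cytosolic chaperone *hsp-90* at -0.20 ± 0.07. Without Adult replicate 2, 6 of these 13 were lower, without lethargus replicate 1 only 1, and with median-centring 9. Median-centring gave 5 higher and 8 lower of the endoplasmic reticulum list and 4 higher and 3 lower of the small heat shock proteins. *hsp-60*, the mitochondrial chaperonin, read 12.00, 9.70, 11.73, 11.91 and 12.02 in Adult, with replicate 2 more than 2 units below the rest.

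Adult pools were higher in the genes of oocytes and eggs. Of the eggshell and vitelline layer genes, 0 of 16 measured members were higher in lethargus, 14 lower and 2 not called, with a median of -1.15 against -0.08 over all genes. *perm-1*, which makes the permeability barrier of the eggshell, read 8.41, 9.35, 9.12, 9.42 and 8.96 in lethargus and 10.70, 10.58, 10.60, 10.61 and 10.73 in Adult (-1.60 ± 0.21, 3.03-fold lower in lethargus, adjusted p = 1.2e-05). The egg activation gene *egg-3* and the sperm-binding gene *egg-2* differed by -1.83 ± 0.16 and -1.71 ± 0.21. Of the RNA-binding regulators of oocytes, 0 of 25 measured members were higher in lethargus, 22 lower and 3 not called, with a median of -0.96. *oma-2*, a zinc-finger protein of oocyte maturation, read 9.37, 10.27, 10.15, 10.55 and 10.47 in lethargus and 12.00, 12.09, 11.85, 12.00 and 11.97 in Adult (-1.82 ± 0.19, adjusted p = 7.6e-07), *nos-2* differed by -1.83 ± 0.18 and *puf-5* by -1.66 ± 0.26. In all of these the L4 level was lower than that of lethargus, at 7.51 for *perm-1* and 7.88 for *oma-2*.

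Germ granule genes and genes of meiosis and replication were lower in lethargus as well. Of this list, 0 of 20 measured members were higher in lethargus, 17 lower and 3 not called, with a median of -0.81. The *meg* genes encode disordered proteins of the embryonic germ granules. *meg-4* read 5.01, 5.50, 5.50, 5.73 and 5.55 in lethargus, near background, and 8.44, 9.01, 9.15, 8.67 and 8.14 in Adult (-3.22 ± 0.17, at least 8.68-fold lower in lethargus, adjusted p = 3.3e-10), *meg-3* differed by -2.96 ± 0.18 and *meg-1* by -2.43 ± 0.18. Of the genes of meiosis, 0 of 23 measured members were higher in lethargus, 23 lower and 0 not called, with a median of -0.90. The chromosome pairing genes *zim-1* and *zim-2* and the crossover gene *him-14* differed by -1.45, -1.22 and -1.23. Of the genes of DNA replication and the cell cycle, 0 of 33 measured members were higher in lethargus, 32 lower and 1 not called, with a median of -1.09. The ribonucleotide reductase *rnr-2*, the cyclin *cyb-2.2* and the helicase subunit *mcm-3* differed by -1.63 ± 0.11, -1.51 ± 0.18 and -1.47 ± 0.13. The medians of these 3 lists and of the eggshell and oocyte lists lay between -1.42 and -0.65 under all 5 other scalings.

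Yolk genes differed unevenly. *vit-2* read 13.21, 13.23, 13.22, 13.30 and 13.26 in lethargus and 13.40, 13.38, 13.31, 13.35 and 13.28 in Adult (-0.10 ± 0.10, adjusted p = 0.85), and the arrays of both stages overlapped near the top of the scale. *vit-6* differed by -0.11 ± 0.06 (adjusted p = 0.24), and its second probe set was called lower by -0.28. *vit-1* was lower in lethargus, at 10.69, 10.82, 10.53, 10.71 and 10.86 against 12.87, 12.33, 12.94, 12.82 and 12.93 (-2.05 ± 0.12, 4.15-fold lower, adjusted p = 6.4e-10). *vit-5* and *vit-4* share probes with relatives and differed by -1.10 ± 0.35 (adjusted p = 0.023) and -1.03 ± 0.39 (adjusted p = 0.063). *vit-4* and *vit-6* missed the threshold although their groups did not overlap. With only the 10 arrays of lethargus and Adult in the fit 3 of the 5 yolk genes were lower. Without lethargus replicate 1, 1 was. Centring on the median or on the spiked controls made all 5 lower, with medians of -1.28 and -1.30 against -1.03 as deposited. Whether *vit-2* and *vit-6* are called thus depends on the scaling.

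The somatic gonad and uterus gave mixed counts, with fewer members higher under median-centring. For the yolk receptor and sheath cell list, 1 of 9 measured members were higher in lethargus, 5 lower and 3 not called, with a median of -1.21. The innexins *inx-22*, *inx-8* and *inx-9*, gap junction proteins between germ line and sheath, differed by -1.68 ± 0.12, -1.66 ± 0.12 and -1.35 ± 0.18, and the sheath transcription factor *ceh-18* by 0.64 ± 0.16 with overlap. Of the genes of the uterine lumen and of egg laying, 3 of 9 measured members were higher in lethargus, 4 lower and 2 not called. *ule-1*, a protein secreted into the uterus, was lower in lethargus by a large amount, with lethargus arrays at 5.66, 7.82, 5.92, 7.33 and 7.80 and Adult arrays at 11.82, 11.81, 11.87, 12.19 and 11.88 (-5.01 ± 0.34, 32.2-fold lower in lethargus, adjusted p = 5.9e-09). *ule-5* differed by -2.19 ± 0.27. For *ule-3* the probe sets disagree: the brighter was higher in lethargus (0.85 ± 0.24, with overlap) and the other lower (-1.42, called). *egl-17* was higher, at 0.91, and the cell death gene *egl-1* lower, at -0.66 (1.55-fold or more). The Hox gene *egl-5* was called higher with both stages below background (4.63 ± 0.31 in lethargus and 4.25 ± 0.14 in Adult). Median-centring gave 0 higher and 6 lower of the yolk receptor and sheath cell list. It gave 1 higher and 5 lower of the uterine and egg-laying list.

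Embryonic genes were called in both directions, and 13 of the 21 in lethargus and 11 in Adult were below background. Of the list of genes first transcribed in early embryos, 4 of 21 measured members were higher in lethargus, 9 lower and 8 not called. *pes-1*, a forkhead factor, was at 4.92 ± 0.67 in lethargus and 7.66 ± 0.31 in Adult (-2.74 ± 0.25, at least 4.28-fold lower in lethargus), *hnd-1* differed by -1.90 ± 0.12, and *vet-1* was below background in both stages (3.24 ± 0.21 in lethargus and 4.93 ± 0.36 in Adult). *end-1*, which specifies the endoderm, was not above background in either stage (4.89 ± 0.38 in lethargus and 4.93 ± 0.17 in Adult). *nob-1*, *pha-4* and *elt-7*, which are also expressed outside the early embryo, were higher in lethargus, by 2.67, 2.12 and 1.13. The major sperm protein genes did not pass the test: of 23, 0 were called in either direction by limma, the median was -0.03, the member farthest from 0 was *msp-142* (0.22 ± 0.10, adjusted p = 0.15), and all were read from probe sets with shared probes. Median-centring made 16 of them lower. Of the other sperm genes, 20 of 55 measured members were higher in lethargus, 5 lower and 30 not called, with *spe-21*, *spe-47* and *spe-43* at 1.34 (1.82-fold or more), 1.20 and 0.93 and *ssp-37*, *spe-39* and *spe-44* at -1.64, -1.17 and -0.86. Leaving out lethargus replicate 1 reduced the higher sperm genes to 13, and the median turned to -0.07 with median-centring.

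Adaptors of protein degradation differed by large amounts towards Adult in several members. The *skr* genes encode relatives of Skp1, which links F-box proteins to the SCF ubiquitin ligase. Of these, 4 of 19 measured members were higher in lethargus, 12 lower and 3 not called, with a median of -0.95. *skr-7* read 3.45, 5.23, 3.81, 4.39 and 5.26 in lethargus, below background, and 8.92, 9.28, 8.97, 9.13 and 8.90 in Adult (-4.61 ± 0.27, at least 11.1-fold lower in lethargus, adjusted p = 1.1e-09), *skr-15* was at 4.97 ± 0.58 in lethargus and 8.97 ± 0.33 in Adult (adjusted p = 5.4e-10) and *skr-13* differed by -2.51 ± 0.16 (3.69-fold or more), while *skr-3* was higher by 1.63 ± 0.11 and *skr-19* and *skr-20* by 0.45 and 0.34. Of the F-box genes of the *fbxb* and *fbxc* classes, 7 of 139 measured members were higher in lethargus, 50 lower and 82 not called, beside 31.0% lower over all genes, with 114 of the 139 below background in both stages. Median-centring made 124 of them lower. *fbxc-36*, *fbxc-42* and *fbxb-15* differed by -2.72 (3.79-fold or more), -2.70 (3.22-fold or more) and -2.57 (1.53-fold or more), and *fbxc-58*, *fbxb-36* and *fbxc-48* by 3.82 (6.73-fold or more), 1.04 and 0.69 (1.07-fold or more). Among the *fbxa* genes, 50 of 171 measured members were higher in lethargus, 51 lower and 70 not called (39 higher and 88 lower with median-centring), with *fbxa-170* at -3.62 ± 0.11 (7.36-fold or more), *fbxa-83* at -3.51 (6.16-fold or more), *fbxa-181* at -2.45 (1.76-fold or more), *fbxa-157* at 3.22 ± 0.15, *fbxa-158* at 3.20 (5.22-fold or more) and *fbxa-166* at 3.11 (6.22-fold or more). Of the BATH and MATH domain genes, a class of ligase adaptors, 19 of 85 measured members were higher in lethargus, 39 lower and 27 not called, with *bath-41* at -1.52 ± 0.11, *bath-19* at -1.31, *bath-21* at -1.29, *math-4* at 3.22 ± 0.12, *math-47* at 2.42 and *math-20* at 1.58. Median-centring gave 16 higher and 55 lower of this class, and 1 higher and 14 lower of the *skr* genes.

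Further genes were lower in lethargus by large amounts. *btb-6*, *sea-1*, *rgs-11* and *drd-10* were at -3.85 (13.2-fold or more), -3.97 (11.7-fold or more), -3.79 (7.26-fold or more) and -4.95 (17.0-fold or more). *sea-1* is a T-box gene and *rgs-11* a regulator of G protein signalling. For *drd-10* the lethargus arrays were at 4.53, 4.73, 4.49, 4.71 and 5.05 and the Adult arrays at 9.47, 10.25, 10.18, 9.33 and 9.02. Of genes with a sequence name only, *C10G8.4*, *F02D10.6*, *ZK813.2*, *K04G2.10* and *W10G11.3* were lower, at -5.24, -4.11 (4.01-fold or more), -4.11, -3.88 (4.74-fold or more) and -3.79 (12.3-fold or more).

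Genes of basic cell functions differed by small amounts. Of the proteasome subunits, 0 of 33 measured members were higher in lethargus, 29 lower and 4 not called, with a median of -0.33 and *rpn-9*, *pas-7* and *rpn-1* at -0.72 ± 0.07, -0.64 and -0.56. Of the mitochondrial ribosomal proteins, 0 of 59 measured members were higher in lethargus, 29 lower and 30 not called, and 39 were lower without Adult replicate 2. Cyclic loess reduced them to 13. *mrpl-45*, *mrpl-51* and *mrpl-18* were at -0.89, -0.77 and -0.65. Of the cytosolic ribosomal proteins, 2 of 75 measured members were higher in lethargus, 2 lower and 71 not called, with a median of 0.01. *rpl-11.2* was higher and its near copy *rpl-11.1* lower (0.48 ± 0.11 and -0.22 ± 0.06, on shared probes), and *rpl-23A.1* and *rpl-41.1* were at 0.36 and -0.53. Median-centring made 63 of the 75 lower, so their direction is set by the scaling. Of the oxidative phosphorylation genes, 4 of 42 measured members were higher in lethargus, 7 lower and 31 not called. This balance moved to 0 higher and 19 lower with median-centring, and to 10 higher and 5 lower with cyclic loess. The ATP synthase subunit genes *asg-2* and *asb-1*, the latter a germ-line form, were at 0.43 ± 0.08 and -0.69 ± 0.08, and *gas-1*, *ucr-2.1*, *sdha-2* and *cox-11* at 0.35, 0.29, -0.75 and -0.59. Of the histone genes, 5 of 34 measured members were higher in lethargus, 17 lower and 12 not called, with the replacement histone *his-71* at 1.34 ± 0.10, *his-24* at 0.87, *his-37* at 0.68, the linker histones *hil-4* and *hil-1* at -1.09 ± 0.14 and -1.09 and *his-38* at -1.13. The histone counts were 3 higher and 23 lower with median-centring.

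Among regulators, nuclear hormone receptors were called higher more often than lower, and Argonautes lower more often than higher. Of the nuclear hormone receptor genes, 114 of 254 measured members were higher in lethargus, 26 lower and 114 not called, with *nhr-112* at 2.91 ± 0.23, *nhr-6* at 2.35 ± 0.16 (3.93-fold or more), *nhr-208* at 2.43 (2.78-fold or more), *nhr-235* at -2.30, *nhr-181* at -1.59 (1.47-fold or more) and *nhr-2*, a receptor gene of early embryos, at -2.39 ± 0.12. The median of this list, 0.21, became -0.04 with median-centring, with 89 higher and 81 lower. Of the homeobox genes, 15 of 76 measured members were higher in lethargus, 20 lower and 41 not called (8 higher and 44 lower with median-centring), with *ceh-5*, *nob-1* and *php-3* at 2.60 (2.79-fold or more), 2.67 and 2.57 and *ceh-40*, *ceh-49* and *ceh-83* at -3.33 (4.56-fold or more), -3.18 and -3.02 (7.33-fold or more). *nob-1* and *php-3* are neighbouring posterior Hox genes. Of the Argonautes, which bind small RNAs, 5 of 17 measured members were higher in lethargus, 11 lower and 1 not called. *alg-1*, which binds microRNAs, was higher (1.08 ± 0.15), and *hrde-1* and *ergo-1*, which act in the germ line, were lower (-1.63 ± 0.17 and -1.29 ± 0.10). *wago-10* and *sago-1* were at 0.85 and 0.83, and *nrde-3* at -1.08. Of the heterochronic genes, which time the larval stages, 5 of 13 measured members were higher in lethargus, 2 lower and 6 not called. *lin-46* differed by 1.61 ± 0.12 (2.94-fold or more), *nhr-25* by 1.10 (1.82-fold or more), *lin-28* by -0.53, and *lin-41*, which also acts in oocytes, by -1.58 ± 0.20.

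A small set of genes was uneven among the lethargus pools. The SD over 5 arrays was above 1 in 140 of 17118 genes in lethargus and in 9 in Adult, although the median SD over all genes was 0.15 in lethargus and 0.17 in Adult. Of the 140, lethargus replicate 1 was the highest array in 90 and the lowest in 39, replicate 3 was the lowest in 57, and 100 had a higher mean in L4 than in Adult. Among them were 12 of the 146 cuticle collagens, 8 of the 54 hedgehog-related genes, 7 of the 13 strut and body shape collagens, 3 of the 15 precuticle genes, 4 of the 47 *pqn* genes and 2 of the 29 molting regulators, but none of the furrow collagens, the cuticlins, the astacins or the genes of collagen processing. Of the 11 *abu* genes, 2 were among the 140 as well, *abu-12* and *abu-13*. The genes named here were chosen after their values were seen. The hedgehog-related gene *wrt-4* read 11.48, 9.63, 6.23, 7.92 and 9.49 in lethargus, against an L4 mean of 12.08 and an Adult mean of 4.99. The strut collagen *bli-2* read 10.88, 9.55, 6.14, 7.50 and 9.36, and *dao-4* 10.91, 8.49, 5.84, 6.31 and 8.55. In each, replicate 1 was nearest to L4 and replicate 3 nearest to Adult. *bli-2* was called (2.38 ± 0.60, adjusted p = 0.005) although replicate 3 lay within the Adult range.

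Genes with the opposite course over the stages were also uneven, in another order. *col-8* read 6.90, 10.86, 8.88, 10.79 and 10.91 in lethargus and 13.06, 13.05, 12.91, 13.07 and 13.13 in Adult, against an L4 mean of 6.57. *ZK813.2* read 5.46, 8.75, 5.16, 8.49 and 8.58 and *C10G8.4* 4.76, 7.38, 5.06, 7.15 and 7.55, with Adult means of 11.40 and 11.63. Replicates 1 and 3 were both low there. *piit-1* was near the L4 level in replicate 1 alone, at 3.96, 9.06, 9.36, 10.22 and 9.24, and did not pass the test (adjusted p = 0.29). Leaving out replicate 1 changed the call counts from 4492 and 5314 to 4298 and 4940 genes.

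**Figure D5:**
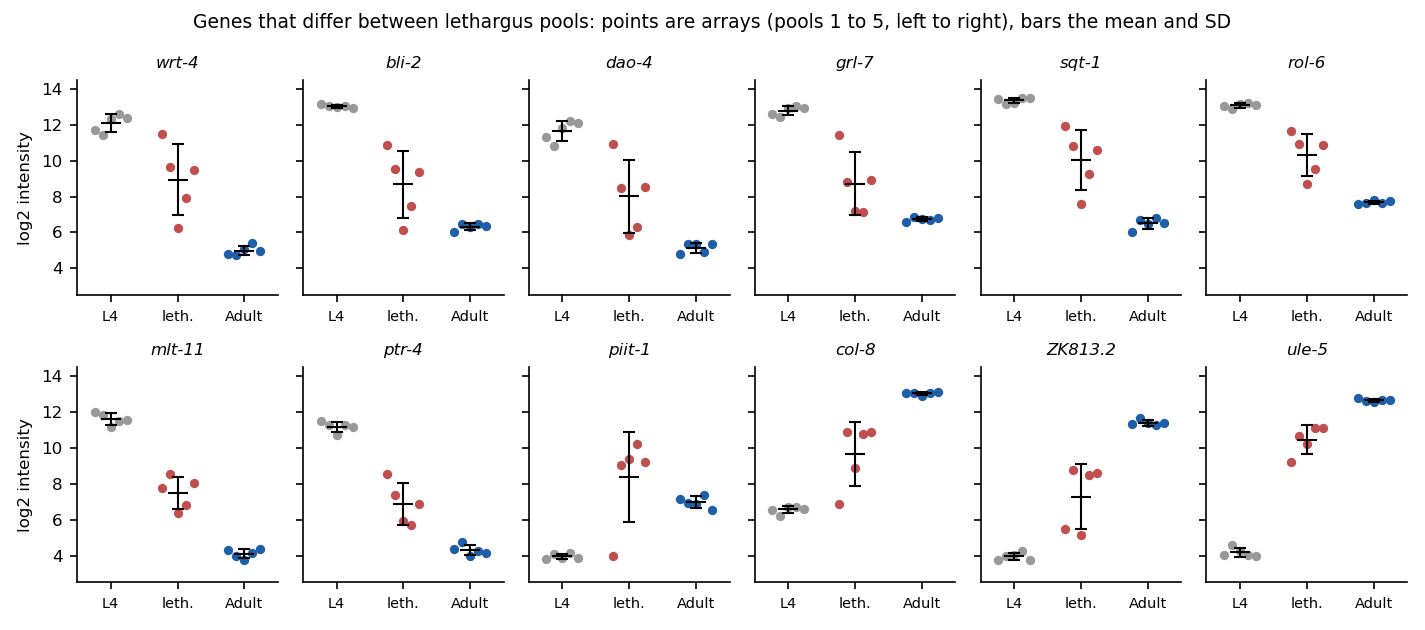
Level of 12 genes (log2 intensity, y axis) in L4, L4-lethargus and Adult, with the 5 arrays of a stage in the order of replicates 1 to 5 from left to right and the mean and SD as bars. In the upper row, replicate 1 is the lethargus array nearest to the L4 level and replicate 3 or 4 the nearest to the Adult level, and in piit-1 only replicate 1 is at the L4 level.

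Adult replicate 2 carried its own set of deviations. *ced-10*, a Rac GTPase of cell engulfment, read 8.94, 6.19, 8.56, 8.81 and 9.01 in Adult, and *hsp-60*, *oxa-1*, which encodes a mitochondrial membrane insertase, and *rha-2*, which encodes an RNA helicase, were likewise lowest in replicate 2. The C-type lectin gene *clec-60* was high there, at 4.24, 6.55, 4.71, 4.33 and 4.28. Without Adult replicate 2 the counts were 4723 genes higher and 5416 lower, and without it and lethargus replicate 1 together they were 4586 and 5186.

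The L4 arrays place the large differences in time, with the caution that the lethargus arrays are shared by both views. Of the 272 genes called higher with a measured difference of at least 3, 85 had an L4 mean within 1 log2 unit of the Adult mean, 93 had one within 1 unit of the lethargus mean, and 62 had an L4 mean above that of lethargus. *abu-15* and *dct-5* belong to the first kind, *tag-297* and *lips-7* to the second, and *sqt-1* and *dpy-5* to the last. The second kind and the last share members, such as *dpy-5*, with a mean of 12.70 in L4 and 11.95 in lethargus. Of the 65 called lower by as much, 40 had an L4 mean within 1 unit of lethargus, 2 within 1 unit of Adult and 11 above lethargus. *skr-15* and *col-143* were near the lethargus level in L4, with means of 4.08 and 7.22, and *grd-10* and *grd-3* were above it.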

How the data were processed

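Total RNA of hand-picked pools was amplified (NuGEN Ovation) and measured on Affymetrix C. elegans Genome Arrays, per the labels' protocols. RNA integrity numbers were above 5, and the authors dropped 1 sample of each stage, as the labels also say. The deposited values are log2 intensities, which the authors made with RMA, per the submitters' processing notes, which give no version or settings. Run order and scan date are not given in the sources used here. Of 22625 probe sets, 77 controls were left out and 22548 were tested. GEO's platform annotation names 1 gene for 20766 of them, several for 887 and none for 895, and 20701 of the first kind matched a reference gene. For the 2981 genes with several probe sets the one with the highest mean over the 15 arrays was used, and 6711 probe sets share probes with other sequences.

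Means of 3 stages were fitted per probe set by lmFit and eBayes of limma 3.58.1 (R 4.3.3), with no covariate, in place of the R/maanova tests that the series' design names. Two-sided p-values of the lethargus minus Adult contrast were multiplied by 2, as that design does, and then Benjamini-Hochberg adjusted across the 22548 probe sets. Adjusted p in the text is this value, errors are standard errors of limma or SDs over 5 arrays, and "called" means an adjusted p of at most 0.05. Single array summaries were compared by exact permutation tests in scipy 1.17.1. A stage below the background limit gives only a bound, so the fold is "at least" the brighter mean over the limit. The scripts were tested on simulated data. Arrays hold no counts, so their number limits the precision. The labels describe separate pools, and p-values measure the spread between pools.

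The genes and lists were chosen with earlier results of these data known. Named are the 12 largest rises and 12 largest falls without overlap among genes with a symbol, the 5 largest of each among genes with a sequence name only, up to 3 called members of a list in each direction (or the 1 farthest from 0 where none was called), every member of lists of at most 8, and *vit-2*, *col-19*, *lin-42*, *flp-11*, *flp-13*, *nlp-22* and *aptf-1*. Stage markers, 4 further *abu* genes and the genes singled out for uneven pools or for neighbouring runs were added after values were seen. Alternatives were median-centring, centring on spiked controls or ribosomal protein genes, repeated quantile normalization, cyclic loess, filters on dim or shared-probe probe sets, other gene summaries, other variance settings, a replicate block and leaving out arrays.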

Additional observations from a re-analysis of the deposited data

Results flagged for a closer look

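For each gene named and each list mean, the highest or lowest of the 5 arrays of a stage was set against the other 4, and 93 of 850 sets of 5 (10.9%) held 1 array whose gap to the nearest of the others, over the whole range, exceeded Dixon's limit of 0.71 for 5 values. Chance alone gives about 1 in 20. Some of these genes were added because 1 array stood out in them, and without all genes added after values were seen the count was 82 of 794. Adult replicate 2 was the array concerned in 50 sets and lethargus replicate 1 in 17. Adult replicate 5 was concerned in 9, lethargus replicate 4 in 7, Adult replicate 1 in 5, lethargus replicate 3 and Adult replicate 4 in 2 each and lethargus replicate 5 in 1. All values are log2 intensity.

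Adult replicate 2 stood below the other Adult arrays in *ced-10* at 6.19, *col-101* at 11.91, *col-19* at 12.82, *dop-1* at 5.17, *glp-1* at 10.24, *gmap-1* at 6.71, *gsy-1* at 9.90, *hil-1* at 8.08, *hsp-60* at 9.70, *lin-28* at 9.53, *lin-3* at 7.93, *mlt-4* at 5.84, *nhr-23* at 8.36, *nrde-3* at 7.16, *oxa-1* at 7.76, *pas-7* at 9.19, *pat-2* at 7.07, *rha-2* at 6.66, *snt-1* at 6.69, *try-1* at 9.81 and *vit-1* at 12.33. Among these are genes of several compartments, the Notch receptor gene *glp-1*, the synaptotagmin gene *snt-1* and the yolk gene *vit-1* among them. It stood above the others in *ZK813.7* at 13.09, *cht-6* at 6.09, *clec-60* at 6.55, *cpr-8* at 10.41, *dmsr-4* at 8.49, *dpy-9* at 7.86, *egg-2* at 12.21, *flp-15* at 10.21, *flp-4* at 8.48, *ins-17* at 7.52, *ins-18* at 8.26, *nas-11* at 10.44, *nlp-47* at 8.34, *skr-15* at 9.55, *skr-3* at 10.91, *spe-43* at 7.10, *spp-8* at 9.63, *tps-2* at 9.43 and *ttr-50* at 10.59. The list means in which it was lowest were eggshell and vitelline layer at 11.77, oocyte RNA-binding regulators at 10.89, yolk receptor and sheath cells at 8.43, molting regulators at 7.01, other heat shock proteins at 10.71 and mitochondrial ribosomal proteins at 10.55. Those in which it was highest were fatty acid activation and oxidation at 9.19, C-type lectins at 6.00, intestinal proteases at 8.94 and nuclear hormone receptors at 6.11.

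Lethargus replicate 1 stood below the other lethargus arrays in *col-19* at 12.77, *cpg-1* at 11.62, *gmap-1* at 11.63, *grl-21* at 9.87, *hsp-43* at 9.40, *lin-3* at 7.12, *mcm-3* at 10.20, *mrpl-45* at 5.72, *nos-2* at 9.11, *oma-1* at 7.78, *piit-1* at 3.96, *try-14* at 10.21 and *vit-5* at 12.30. The oocyte genes *cpg-1*, *oma-1* and *nos-2*, the yolk gene *vit-5* and the replication gene *mcm-3* are among these. It stood above them in *cnc-7* at 10.79, *gas-1* at 11.98, *ins-37* at 9.15 and *wago-10* at 8.24.

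Adult replicate 5 was high in *Y47D7A.13* at 7.77, *col-60* at 7.72, *cyp-35A3* at 5.58, *dbd-13* at 7.63, *dbd-20* at 6.34, *egg-3* at 10.86 and *grl-21* at 8.10, among them genes named above for their high lethargus levels, and low in *fbxb-15* at 5.93 and *hnd-1* at 7.28. Adult replicate 1 was low in *R12E2.7* at 5.91, *dex-1* at 6.01 and *nhr-6* at 4.87, and high in the list means of collagen processing and cross-linking at 8.91 and arousal regulators at 7.14. Adult replicate 4 was high in *let-653* at 6.79 and *ule-1* at 12.19. Lethargus replicate 4 was low in *grl-16* at 12.13, *lgc-21* at 9.48, *nas-7* at 11.07 and *tag-297* at 11.28, and high in *grl-3* at 5.00, *sdha-2* at 11.17 and *tps-1* at 9.15. Lethargus replicate 3 was low in *fbxa-157* at 8.72 and *hsp-75* at 10.44, and lethargus replicate 5 high in *cht-1* at 5.82.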

How the results depend on the processing

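Of the 334 named genes that were called, 300 kept their direction and their side of the threshold under each of the 30 alternatives in which they were tested (133 of the 300 were tested in all, since probe sets that are dim or share probes drop out of 2 of them), and 1, *ule-3*, changed direction, when its other probe set (-1.42) or the mean of both (-0.28) was taken. Centring on the spiked controls gave 3795 probe sets higher and 12301 lower, with 9191 genes lower, and median-centring gave 12286 probe sets and 9184 genes lower. A minimum difference of 1 left 2495 probe sets higher, 1829 lower, and 2014 genes higher and 1383 lower. Without probe sets that share probes, fewer features were tested, and 4561 probe sets and 3500 genes were lower. Without dim probe sets, with the mean or the most variable probe set of a gene, with p-values not doubled, with another variance prior, with array weights or with the 10 arrays alone, gene counts stayed between 3458 and 5165 higher and between 3911 and 5988 lower. Leaving out lethargus replicate 1 and Adult replicate 2 together, an alternative chosen after seeing the data, gave 4586 genes higher and 5186 lower. Leaving out 1 array at a time gave 5360 to 5984 probe sets higher, 6639 to 7334 probe sets lower, 4201 to 4723 genes higher and 4940 to 5416 genes lower, with an array median difference of 0.243 to 0.266. That difference was 0.025 at the lower quartile, 0.034 for the mean and -0.097 at the upper quartile. The cause of these changes was not tested. Stages share replicate numbers. The deviations of same-numbered arrays correlated by -0.079 to 0.109, and those of different-numbered arrays by -0.127 to 0.156. These values give no sign that the numbers pair the arrays, and a shared batch was not tested. With the replicate block the counts were 5553 probe sets higher and 6916 lower, or 4366 genes higher and 5157 lower. Genes that were not called changed the sign of a small difference as follows. With array weights *ced-10* (-0.0529), *dpy-2* (0.0351), *dpy-3* (0.0005), *hsp-60* (-0.27), *phat-6* (0.0137) and *rha-2* (-0.24) did. Without both arrays that stand apart *ced-10* (-0.0881), *dpy-2* (0.0534), *hsp-60* (-0.28), *mlt-10* (-0.0079), *phat-6* (0.0002) and *rha-2* (-0.27) did. With the spiked controls *cnc-1* (-0.17), *cnc-5* (-0.21), *dpy-7* (-0.16), *flp-13* (-0.21), *hsp-60* (-0.17), *msp-142* (-0.0593), *nlp-22* (-0.0732), *phat-5* (-0.11) and *rha-2* (-0.10) did. With cyclic loess *dpy-3* (0.13), *end-1* (0.0125) and *oxa-1* (0.091) did. With the mean of probe sets *ced-10* (-0.17) and *hsp-60* (-0.0771) did. With median-centring *cnc-1* (-0.14), *cnc-5* (-0.19), *dpy-7* (-0.13), *flp-13* (-0.19), *hsp-60* (-0.14), *msp-142* (-0.0364), *nlp-22* (-0.0502), *phat-5* (-0.0881) and *rha-2* (-0.0807) did. With quantile normalization *dpy-7* (-0.12), *flp-13* (-0.16) and *oxa-1* (0.0047) did. Leaving out 1 array turned the sign of *ced-10* (-0.14 to 0.57), *cnc-5* (-0.0344 to 0.19), *dpy-3* (-0.087 to 0.0138), *dpy-7* (-0.0406 to 0.26), *end-1* (-0.16 to 0.0495), *flp-13* (-0.0126 to 0.14), *hsp-60* (-0.33 to 0.25), *mlt-10* (-0.0033 to 0.79), *oxa-1* (-0.52 to 0.0579), *phat-6* (-0.15 to 0.14) and *rha-2* (-0.34 to 0.33), given as the range over the arrays left out. No median difference of the major sperm proteins could be had without probe sets that share probes, since all of their probe sets do. Signal limits the rest: 4814 genes were below background in both stages, and 5 arrays a stage set the precision.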

Other observations

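Genes that lie next to each other on a chromosome, by the gene order of the reference annotation, sometimes differed together. With a difference of at least 2 in the same direction taken as the limit, 3 runs of 4 neighbouring genes and 15 runs of 3 were found. The *R12E2.15*, *R12E2.14*, *R12E2.6* and *R12E2.7* run was higher in lethargus by 2.72 to 6.54. The *F14H3.3* to *F14H3.6* run was lower, down to -3.30, and the *ZK813.3*, *ZK813.2*, *ZK813.7* and *ZK813.1* run was lower, between -4.11 and -2.41. Among the runs of 3, the *gmap-1*, *gmap-3* and *gmap-2* genes were higher by 4.05 to 5.80. *gmap-3* read 11.51, 11.28, 11.71, 11.81 and 11.55 in lethargus and 5.72, 6.16, 5.54, 5.65 and 5.81 in Adult (5.80 ± 0.19, adjusted p = 1.4e-12 by limma). The *cest-8*, *cest-9.1* and *cest-7* genes were higher by 2.15 to 2.35, and *srr-6*, *srr-4* and *cpt-4* by 2.35 to 4.08. Members of several of these runs share probes (3 in the first run of 4 and 2 in each of the others), so single genes within a run cannot be fully told apart. These runs were looked for after the values were seen, and no test was made of their number.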
